A study of Caenorhabditis elegans with 2 samples.

Results

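The genes described are the peptide genes of Caenorhabditis elegans, chosen by name: every protein-coding gene of the nuclear chromosomes whose symbol is flp, nlp or ins followed by a number. There are 140 of them among 19973 protein-coding genes, of which 31 are flp genes, 71 are nlp genes and 38 are ins genes. RNA polymerase II was mapped on them by chromatin immunoprecipitation and sequencing with an antibody labelled ama-1, the gene of the largest polymerase subunit. There was 1 group with 2 biological replicates, each of whole wild-type worms of strain N2 from the CGC at the young adult stage, with males and females pooled, no treatment named and the age in days listed as unknown.

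Peptide genes encode small secreted signals that are cut from longer precursors. The flp precursors carry peptides ending in an RFamide motif and act mostly through G protein-coupled receptors on neurons and muscle. The nlp genes are defined only as neuropeptide-like and are a mixed class: many are neuronal, while nlp-24 to nlp-34, with nlp-29 and nlp-31 the best known, code for glycine- and tyrosine-rich peptides of the epidermis, several of which are induced by fungal infection and wounding. The ins genes code for insulin-like peptides, agonists or antagonists of the insulin receptor DAF-2. Most of these genes are used in few cells of the animal, and in whole worms polymerase on a gene in few cells and little polymerase per cell cannot be told apart.

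The authors' peak lists were read by summit, the base where each peak was highest. A gene was counted as holding a summit that lay between 500 bp upstream of its annotated 5' end and its annotated 3' end. The pooled list, called on the reads of both replicates together, has 30000 peaks. The optimal list, which the authors kept for agreement between replicates, has 1103 peaks, and these are the 1103 strongest of the pooled list. A gene could hold an optimal summit and none in 1 of the replicate lists, as nlp-29 and vit-6 did below. Replicate 1 has 27847 peaks and replicate 2 has 30000, so the replicate 2 list was shortened to its strongest 27847. Peaks were ranked within a list by the authors' signal value, with rank 1 the strongest, and signal values of different lists were not compared. Read depth is unknown, since the lists carry none, and genes are not replicates, so counts are given with 95% Wilson intervals as a description and with no test.

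Of the 140 peptide genes 5 held an optimal summit, a share of 3.57% (interval 1.53 to 8.09%), against 3.18% of all protein-coding genes. All 5 are nlp genes: nlp-24, nlp-33, nlp-76, nlp-29 and nlp-28, and 4 of them belong to the 11 genes from nlp-24 to nlp-34. None of the 31 flp genes (upper bound 11%) and none of the 38 ins genes (upper bound 9.18%) held one. In the pooled list 32 peptide genes held a summit, 22.9% (16.7 to 30.5%), against 37.3% of all protein-coding genes. The share of the 140 genes was thus near the background in the optimal list and below it in the pooled list. The optimal share averaged unlike groups: 36.4% of the genes from nlp-24 to nlp-34 and 1.67% of the other 60 nlp genes. Among the 5000 strongest peaks of replicate 1 the peptide genes were below the background, at 4.29% against 13%. In replicate 2 they were at 7.14% against 12.3%, with an interval that reaches 12.6%.

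The sequences under the 5 optimal summits are shown because they place the strongest polymerase signal within each gene. Each runs 5' to 3' on the strand of its gene, with the summit in the middle and 50 bases on either side. The window of nlp-76 was ended early on its 3' side. They were read from the reference genome, build WBcel235 (ce11), and capitals mark bases of the gene's own annotated coding sequence.
nlp-24, chrV:11616404-11616504, plus strand: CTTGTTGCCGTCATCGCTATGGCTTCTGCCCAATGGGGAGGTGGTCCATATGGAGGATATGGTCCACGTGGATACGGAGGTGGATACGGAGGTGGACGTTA
nlp-33, chrV:11147396-11147496, plus strand: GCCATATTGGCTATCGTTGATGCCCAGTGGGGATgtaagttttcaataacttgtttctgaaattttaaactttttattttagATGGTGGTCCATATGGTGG
nlp-76, chrX:12663874-12663964, minus strand: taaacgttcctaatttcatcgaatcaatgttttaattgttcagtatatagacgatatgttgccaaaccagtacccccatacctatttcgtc
nlp-29, chrV:3984545-3984645, plus strand: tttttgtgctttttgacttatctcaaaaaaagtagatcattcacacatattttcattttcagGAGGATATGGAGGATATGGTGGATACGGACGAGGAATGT
nlp-28, chrV:3987924-3988024, plus strand: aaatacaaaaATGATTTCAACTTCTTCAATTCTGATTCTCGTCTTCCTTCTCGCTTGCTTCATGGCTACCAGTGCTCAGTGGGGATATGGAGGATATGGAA
The nlp-24 window is coding throughout. The nlp-28 window holds the annotated start codon and the first coding bases. The nlp-33 and nlp-29 summits lie in introns, with coding sequence of the next exon inside the window, and the nlp-76 window holds no coding base. An 8-letter stretch visible in 3 of these windows, GGATATGG, reads as glycine and tyrosine codons followed by the start of another glycine codon in 1 of its frames. It was looked for after these windows had been seen. Searched on both strands of the gene bodies, it was found in 10 of the 11 genes from nlp-24 to nlp-34, in 5 of the other 129 peptide genes and in 8.29% of all protein-coding genes. The count was 6 in nlp-30 and in nlp-31, 5 in nlp-29 and 4 in nlp-28, so the repeat is shared by genes with strong and with weak summits. The pooled peaks themselves were largely unique in sequence: of the 32 strongest peaks, 1 for each gene, 27 held no 36-base stretch that occurs elsewhere in the genome, and in the nlp-29 peak 3.99% of such stretches did.

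nlp-24 had the strongest summit of any peptide gene. It ranked 245 in the pooled list with a signal value of 74.59, and lay 78 bp downstream of the annotated 5' end in coding sequence. In replicate 1 its strongest summit ranked 52 and in replicate 2 it ranked 2760, and these summits lay 25 bp apart. nlp-24 was therefore among the strongest 5000 peaks of both replicates and much nearer the top in replicate 1.

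nlp-33 ranked 336 in the pooled list with a signal value of 64.37, 100 bp into the gene in an intron. The order of the replicates was the opposite of that at nlp-24, with rank 4686 in replicate 1 and rank 200 in replicate 2. This summit also lies in the upstream window of the protein-coding gene T19C4.24, so it cannot be assigned to nlp-33 alone.

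nlp-76 is the only gene with an optimal summit outside nlp-24 to nlp-34. It ranked 575 in the pooled list, with a signal value of 51.45, 11 bp upstream of its annotated 5' end. The base also lies within the body of nhr-17, a gene of the nuclear hormone receptor family. The summit therefore cannot be assigned to nlp-76 alone. Replicate 1 had 3 summits in the nlp-76 window, which ranked 140, 1017 and 1153. Replicate 2 had summits that ranked 1963 and 4665, both in the 5' UTR.

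nlp-29, a reporter gene for the epidermal response to fungal infection, ranked 667 in the pooled list with a signal value of 48.6, 170 bp into the gene. In replicate 2 it ranked 467. Replicate 1 had no summit in its window: the nearest one lay 288 bp from the pooled summit, ranked 21261 and fell just past the annotated 3' end. The nlp-29 window thus held a summit in replicate 2 only, though the peak of that replicate 1 summit overlaps the end of the pooled peak. nlp-28, its neighbour on chromosome V, ranked 676 in the pooled list with a signal value of 48.22, and its summits in the pooled list and both replicates fell within 9 bp of each other at ranks 676, 4187 and 831.

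The same 5 genes did not lead both replicates. With each replicate list taken to the length of the optimal list, replicate 1 named 2 peptide genes, nlp-24 and nlp-76, against 3.20% of all protein-coding genes, and replicate 2 named 3, nlp-28, nlp-29 and nlp-33, against 3.28%. No peptide gene was named by both, and of all 19973 protein-coding genes 324 were.

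**Figure D1:**
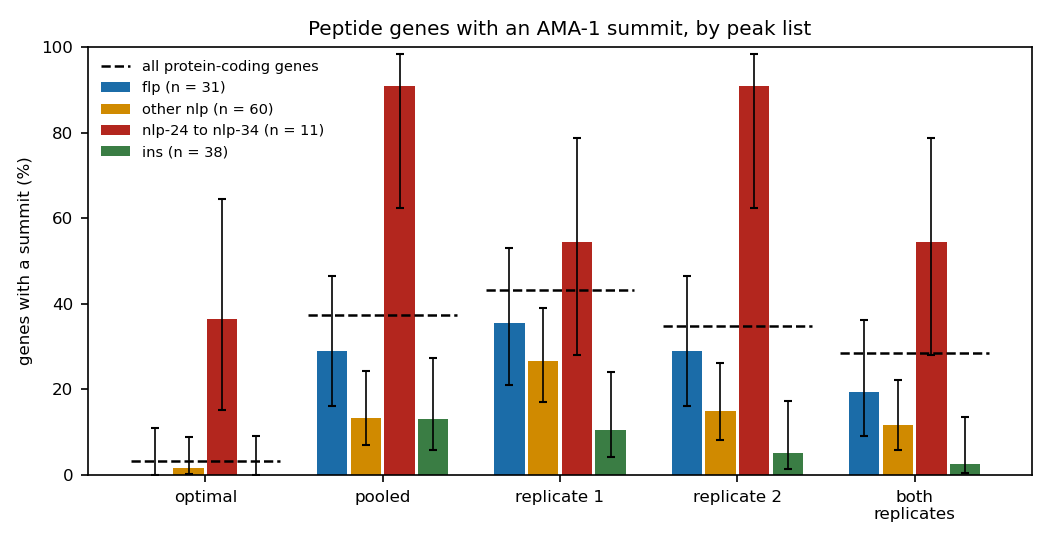
Percent of genes with an AMA-1 summit in each peak list (y axis), for flp genes, nlp-24 to nlp-34, the other nlp genes and ins genes. Bars give the share, whiskers the 95% Wilson interval over genes, and dashed lines the share of all protein-coding genes, which only the bars for nlp-24 to nlp-34 exceed.

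In the pooled list the epidermal defence peptides stood apart from the other peptide genes. Of nlp-24 to nlp-34, 10 of 11 genes held a pooled summit, 90.9% (62.3 to 98.4%). Of the other 60 nlp genes 8 did, 13.3% (6.91 to 24.2%). The flp genes stood between these with 9 of 31, 29% (16.1 to 46.6%), and of the ins genes 5 of 38 did, 13.2% (5.75 to 27.3%). The intervals of the flp, other nlp and ins genes overlap each other, and that of nlp-24 to nlp-34 overlaps none of them. Outside nlp-24 to nlp-34 the peptide genes held pooled summits in 22 of 129 cases, 17.1%, with an interval up to 24.5%. The group nlp-24 to nlp-34 was set apart with earlier results of these data known, so these counts describe it and test nothing.

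Gene length bears on such counts, because a long gene offers more bases for a summit. Median gene length was 434 bp for nlp-24 to nlp-34, 649 bp for ins, 995 bp for the other nlp genes, 1186 bp for flp and 2027 bp for all protein-coding genes. Per kb of window, pooled summits numbered 1.16 in nlp-24 to nlp-34, 0.159 in the other nlp genes, 0.14 in ins and 0.127 in flp, against 0.343 over all protein-coding genes. On this scale the flp genes no longer stood above the ins and the other nlp genes in the pooled list, while they stayed above the ins genes in replicate 1, at 0.241 against 0.14, and in replicate 2, at 0.152 against 0.0601. Among genes of at most 1000 bp, 13 of 76 peptide genes held a pooled summit, 17.1%, against 26.2% of all protein-coding genes of that length.

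The 11 genes from nlp-24 to nlp-34 lie on chromosome V except nlp-32, on chromosome III, which is also the 1 gene of the group with no summit in any list. On chromosome V the peptide genes held pooled summits in 12 of 23 cases, 52.2%, against 24.5% of the chromosome's protein-coding genes. The other 13 peptide genes of that chromosome contributed 2 of these 12. On X, which carries the most peptide genes, 7 of 34 held one, 20.6%, against 33.7%.

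A run of 6 of these genes, nlp-34, nlp-31, nlp-30, nlp-29, nlp-28 and nlp-27, lies side by side on chromosome V with no other annotated gene between them. Within this run and 500 bp on either side of it the pooled list had 13 summits, replicate 1 had 7 and replicate 2 had 15. Every one of the 6 genes held a pooled summit. After nlp-29 and nlp-28 came nlp-27 at rank 2676, 123 bp into the gene, and nlp-31 at rank 6035, 161 bp into the gene. nlp-34, on the opposite strand, followed at rank 7530, 40 bp upstream, and nlp-30 at rank 13072, 442 bp into the gene. The levels within the run thus spanned from the optimal list to the weaker pooled peaks. A further pooled summit of rank 2541 lay 230 bp past the 3' end of nlp-31, in no gene's window.

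**Figure D2:**
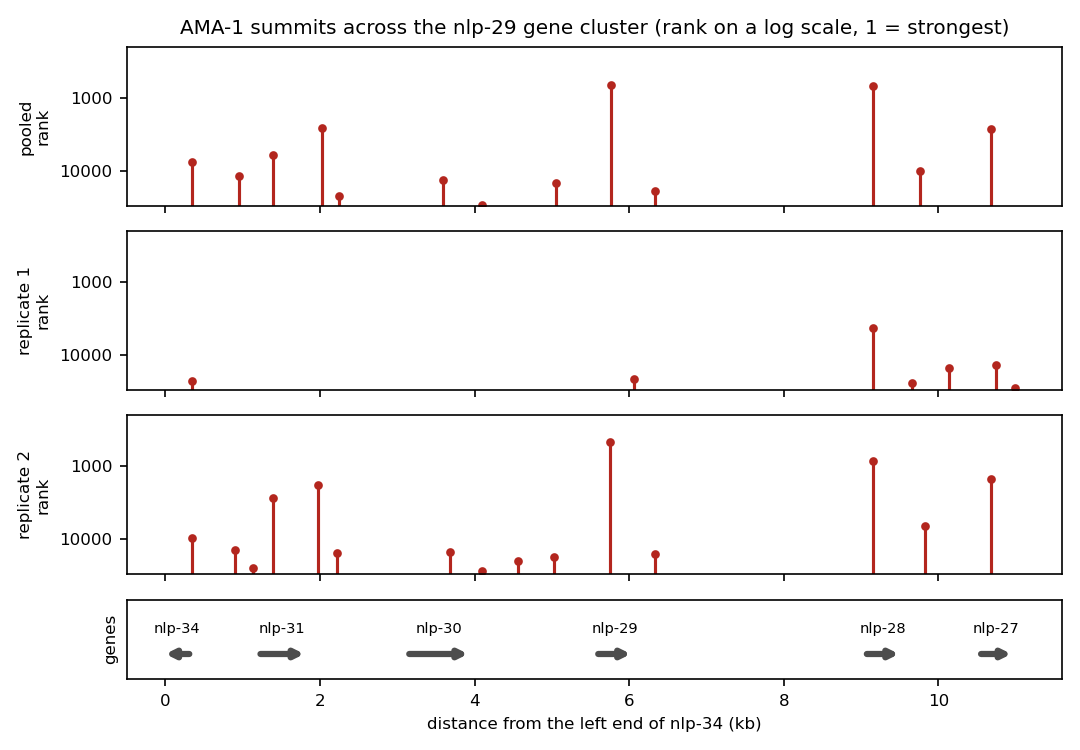
AMA-1 summits over the nlp-29 gene run in the pooled list and each replicate. The x axis is distance in kb from the left end of nlp-34, each line is 1 summit with its rank on a log y axis (1 = strongest), and arrows show the genes and their strands; replicate 1 has no summit over nlp-31, nlp-30 and nlp-29, where replicate 2 has several.

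The replicates differed across this run. In replicate 1 nlp-28 ranked 4187, nlp-27 ranked 13709 and nlp-34 ranked 22341, while nlp-31, nlp-30 and nlp-29 held no summit. In replicate 2 all 6 held one, at ranks from 467 for nlp-29 to 14953 for nlp-30. Over nlp-24 to nlp-34 as a whole, 6 of 11 genes held a summit in replicate 1 and 10 of 11 in replicate 2, and the 6 were among the 10. The genes missing in replicate 1 were nlp-25, nlp-29, nlp-30 and nlp-31. The group's share was 54.5% in replicate 1, against 43.3% of all protein-coding genes, and its interval includes that background. In replicate 2 it was 90.9% (62.3 to 98.4%), against 34.7%. By share of genes the group was above the background in both replicates, and by more in replicate 2. It was set apart with earlier results of these data known, and 6 of its 11 genes are neighbours. These values therefore describe the group and test nothing. Per kb of window its summits numbered 0.54 against 0.332 in replicate 1, and 1.08 against 0.31 in replicate 2. Aligned end to end in pairs with gaps counted, the gene sequences of the run, introns included, were 35.9% to 73.9% identical, highest between nlp-28 and nlp-29. Unrelated genes were not aligned for comparison, so how far these values exceed those of unrelated sequence is unknown.

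Among the remaining nlp genes, nlp-35 had the strongest pooled summit after nlp-76. It ranked 1471, 342 bp into the gene in coding sequence, and held a summit among the strongest 5000 peaks of each replicate, at rank 2328 in replicate 1 and 1413 in replicate 2. nlp-15 ranked 7909 and nlp-40, an intestinal peptide that sets the defecation rhythm, ranked 10236, each with 5 pooled summits spread over a long gene. nlp-67 held a pooled summit of rank 14960 and none in either replicate. nlp-12, a cholecystokinin-like peptide of a single stretch-sensing neuron, held no summit in any list, and nlp-1 held only a replicate 1 summit of rank 22196. nlp-18, at rank 5660, and nlp-41, at rank 7146, had the strongest nlp summits found in replicate 1 and not in replicate 2.

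In the pooled list the flp genes held weaker summits than the leading nlp genes. The strongest was flp-23 at rank 9825 of the pooled list, with a signal value of 14.63, 1270 bp downstream of the annotated 5' end and close to the end of the coding sequence. It is shown for contrast with the nlp windows, in the same form.
flp-23, chrIII:8651987-8652087, plus strand: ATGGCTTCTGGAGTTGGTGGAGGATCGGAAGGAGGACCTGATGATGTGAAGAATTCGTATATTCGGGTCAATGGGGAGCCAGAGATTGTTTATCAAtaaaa
The replicate 2 summit of flp-23 lay 2 bp from the pooled one at rank 9933, and its replicate 1 summit ranked 27069, near the end of that list. Next were flp-28 at rank 13115, flp-16 at 13383, flp-9 at 16283 and flp-19 at 16436. The flp-28 summit lay 309 bp upstream of the gene and within the body of W07E11.1, as did that of flp-3, so neither can be assigned to a flp gene alone.

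flp-28 was the strongest flp gene of either replicate, at rank 3687 in replicate 1, and replicate 2 had no summit in its window. flp-13, whose peptides act in sleep induced by stress, ranked 7459 in replicate 1 and held no summit in replicate 2 or the pooled list. In the other direction flp-17, a gene of the carbon dioxide-sensing BAG neurons, ranked 14914 in replicate 2 and held none in replicate 1 or the pooled list. flp-18, a ligand gene for the NPR-1 receptor, held a pooled summit of rank 28545 and a replicate 2 summit of rank 22987, and none in replicate 1. flp-1, the founding gene of the family, held no pooled summit, and its summits in replicate 1 and replicate 2 ranked 26784 and 24520. All of these sit in the weaker part of their lists except flp-28 and flp-13 in replicate 1.

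The ins genes had the fewest summits, but in the pooled list and in replicate 2 their strongest ranked above every flp gene. In replicate 1 their strongest, ins-37, ranked below flp-28, flp-9 and flp-13. ins-33 ranked 3649 in the pooled list, 175 bp into the gene in coding sequence. The same base was the summit in replicate 2, at rank 2653, while the nearest replicate 1 summit lay 5610 bp away. ins-13 ranked 4956, but 402 bp upstream of the gene and within the body of acdh-2, an acyl-CoA dehydrogenase gene. It was the 1 ins gene with a summit in both replicates, at rank 9083 in replicate 1 and 2057 in replicate 2. ins-37 ranked 9294 in the 5' UTR and 8474 in replicate 1, with none in replicate 2. In its pooled peak 44.2% of 36-base stretches occur elsewhere in the genome, and that peak also lies upstream of the non-coding gene R05D7.8. ins-17 and ins-36 followed at ranks 21809 and 26355, each with a replicate 1 summit and no replicate 2 summit.

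No list held a summit for ins-1 and ins-18, described as antagonists of DAF-2, for ins-7, an agonist made in intestine and neurons, or for ins-11. No summit in a window says only that no peak was called there at this unknown depth.

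**Figure D3:**
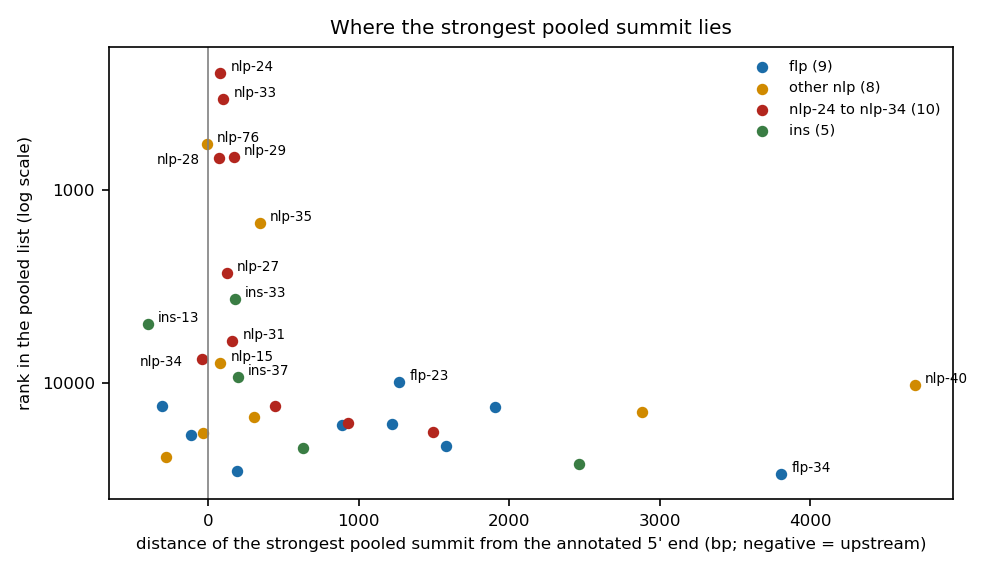
Distance in bp of the strongest pooled summit from the annotated 5' end (x axis, negative upstream) against its pooled rank on a log scale (y axis), for the 32 peptide genes with one. The 5 optimal summits lie within 200 bp of the 5' end, and the weaker summits reach to 4694 bp into the gene, at nlp-40.

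The strongest pooled summit lay at a median distance from the annotated 5' end, upstream or downstream, of 165.5 bp in the 18 nlp genes, 402 bp in the 5 ins genes and 1218 bp in the 9 flp genes. It lay within 200 bp of that end in 10 of 18 nlp genes, 2 of 5 ins genes and 2 of 9 flp genes. Within the nlp genes it did so in 7 of the 10 from nlp-24 to nlp-34, with a median distance of 142 bp. In the other 8 nlp genes it did so in 3, with a median of 293.5 bp. In replicate 2 the median was 152 bp for 19 nlp genes and 1268 bp for 9 flp genes, and in replicate 1 it was 415.5 bp for 22 nlp genes and 790 bp for 11 flp genes. The flp genes are longer, so part of their window lies farther from the 5' end, and nlp-24 to nlp-34 are the shortest by median. The share of length in these differences was not tested. Over all 32 genes, 7 of the strongest summits were upstream, 1 in a 5' UTR, 10 in coding sequence, 11 in introns and 3 in 3' UTRs. In 7 of the 32 genes the summit also lay in the window of a gene outside the 3 families.

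At equal list length replicate 1 held summits in 37 peptide genes, 26.4%, against 43.3% of all protein-coding genes, and replicate 2 in 30, 21.4%, against 34.7%. Both replicates held one in 20 genes, 14.3%, against 28.4%. These 20 were 54.1% of the replicate 1 genes and 66.7% of the replicate 2 genes, while over all protein-coding genes the shared part was 65.5% and 81.9%. By family the shared genes were 6 flp, 13 nlp and 1 ins. A further 17 genes held a summit only in the replicate 1 list and 10 only in the replicate 2 list, and 93 in neither. Over all 19973 protein-coding genes these 3 counts were 2984, 1252 and 10064.

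Among the 5000 strongest peaks most of the peptide genes named were nlp genes. Replicate 1 named 6 peptide genes, against 13% of all protein-coding genes, and these were 5 nlp genes and flp-28. Replicate 2 named 10, against 12.3%, and these were 8 nlp genes with ins-13 and ins-33. Both named 5, nlp-24, nlp-28, nlp-33, nlp-35 and nlp-76, which is 3.57% of the peptide genes, against 7.12% of all protein-coding genes.

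**Figure D4:**
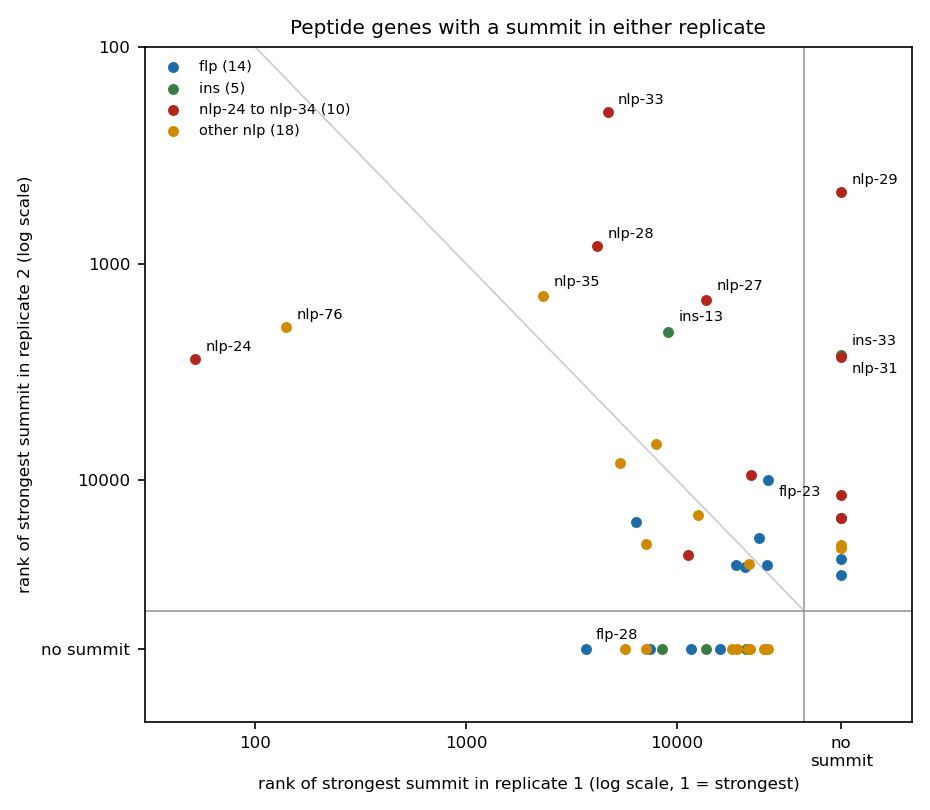
Rank of the strongest summit of each peptide gene in replicate 1 (x axis) and replicate 2 (y axis), both on log scales with 1 the strongest, for the 47 genes with a summit in either. Points past the grey lines had no summit in that replicate, and the diagonal marks equal rank; nlp-24 and nlp-76 lie on the side of replicate 1, and nlp-33, nlp-28 and nlp-27 on that of replicate 2.

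In the 20 shared genes the strongest summits of the replicates lay a median of 270 bp apart, with a range of 1 to 3701 bp, and 9 of the 20 pairs lay within 200 bp. Counting any summit of the gene, 14 of the 20 had a pair within 200 bp. At nlp-34 the gap was 1 bp and at nlp-28 it was 8 bp, while at flp-15 it was 3701 bp. Rank was better in replicate 1 for 10 of the 20 and in replicate 2 for the other 10, so neither replicate ranked the shared genes higher throughout.

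The genes that process and release these peptides held summits more often than the peptide genes did. Of 14 such genes 12 held a pooled summit, 85.7% against 37.3% of all protein-coding genes. In replicate 1 they were 13, 92.9% against 43.3%, and in replicate 2 they were 12, 85.7% against 34.7%. In the optimal list there was 1, 7.14% against 3.18%. That gene was pgal-1, which encodes a lyase of peptide amidation, at rank 283. The proprotein convertase gene kpc-1 ranked 1110. The main neuronal convertase gene, egl-3, ranked 9461, and egl-21, a carboxypeptidase gene, ranked 9878. Of 91 peptide receptor genes 9 held a pooled summit, 9.89%, and none an optimal one. In replicate 1 the receptor genes with a summit were 24, 26.4%, the same share as for the peptide genes, against 43.3% of all protein-coding genes. In replicate 2 the receptor genes with a summit were 12, 13.2% against 34.7%. The strongest, at npr-14, ranked 1275 and lies within nhr-85 as well.

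Of the 10 genes of the insulin receptor pathway 8 held a pooled summit, 80.0%, and 2 an optimal one, against 37.3% and 3.18% of all protein-coding genes. The 2 were daf-2, the receptor of the ins peptides, at rank 548, and daf-16, the FOXO transcription factor at the end of the pathway, at rank 936. The daf-2 summit also lies in the non-coding gene linc-143. Both were among the strongest 1000 peaks of each replicate, at ranks 890 and 664 for daf-2 and 857 and 522 for daf-16. Of 7 peptide genes with other names 1 held a pooled summit (14.3%), pdf-1, a circadian-type neuropeptide gene, at rank 23225, and the insulin-like gene daf-28 held none. These lists were not matched to the peptide genes for length, and the share of length in these counts was not tested.

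Markers of the animals' tissues were read in the same way, beside the 37.3% of all protein-coding genes with a pooled summit and the 3.18% with an optimal one. Of 8 pan-neuronal genes 6 held a pooled summit, 75.0%. The synaptobrevin gene snb-1 held an optimal one at rank 912, which also lies in the upstream window of syx-18. Of 3 epidermal genes 2 did, with wrt-2 in the optimal list at rank 354. None of 3 intestinal genes held a summit in any list. Of the 6 vitellogenin genes, the yolk genes of the adult hermaphrodite, 2 held a pooled summit, 33.3%, which is near the background, and vit-6 was in the optimal list at rank 1034. Vitellogenin summits were found in 2 genes in replicate 1, vit-6 at rank 153 and vit-2 at rank 376, both near the top of that list. Replicate 2 had none in these genes, while 4 genes of nlp-24 to nlp-34 held a summit only in replicate 2. Over all 19973 protein-coding genes 2984 held a summit of any rank only in replicate 1 and 1252 only in replicate 2. The part of the replicates' make-up in the vitellogenin and nlp differences was not tested.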

How the data were processed

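Peak lists of AMA-1 chromatin immunoprecipitation from whole N2 young adults were analysed, with 2 biological replicates in 1 group, numbered per the labels. Per the READMEs deposited with the samples, the lists on build ce11 come from alignments and a control alignment: one relaxed list for each replicate, one for the pooled reads, and an optimal list kept for agreement between replicates. Aligner and peak caller: not given in the sources used here. The deposited signal value is a score from the authors' peak caller, and here it served for ranking inside each list alone. Another deposited column gives −log10 of a q-value; 5554 pooled peaks share its highest value, 4.05, so it was not used to rank. Summits were placed from the deposited offset, which counts bases from the start of a peak. The control library, the ce10 lists and the genes of the mitochondrial genome were not used here.

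Genes came from Ensembl release 115 of WBcel235, which shares its coordinates with ce11; positions are 1-based. Of the 140 genes, all matched the RefSeq gene table by name and 135 had both ends within 100 bp of it. Many worm genes are trans-spliced, so an annotated 5' end can be a splice site and not the start of transcription. Counts over genes were made with Python 3.11.15, pandas 2.3.3 and scipy 1.17.1 (95% Wilson intervals, which cover counting of genes only), and the placement of summits was checked on simulated positions. No statistical test was run, because there is 1 group and genes are not replicates. No depth per sample can be read from the lists, so the precision set by sequencing is unknown.

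The genes, the lists of pathway and marker genes and the group nlp-24 to nlp-34 were chosen with earlier results of these data known. The genes named are those with an optimal summit, the 5 strongest of each family in the pooled list, those among the 5000 strongest peaks of both replicates, the 2 strongest of each family found in 1 replicate only, the lowest-numbered of each family with no pooled summit, and flp-1, flp-18, nlp-12, nlp-29, nlp-31, ins-1, ins-7, ins-11 and ins-18 whatever their values. Of the pathway and marker lists, those with an optimal summit or else the strongest pooled summit are named. Other genes were named after their values were seen (flp-3, flp-15, nlp-15, nlp-25, nlp-27, nlp-30, nlp-32, nlp-34, nlp-40, nlp-67, egl-3, egl-21, kpc-1, daf-28, vit-2). Alternatives were other windows, list lengths and single replicates.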

Additional observations from a re-analysis of the deposited data

How the results depend on the processing

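Of 55 counts recomputed under another choice, 41 stayed within 1.5 times the count given. The 5 genes with an optimal summit became 2 with the stronger 551 optimal peaks (nlp-24 and nlp-33), and 3 when summits in the window of any gene outside the families were dropped (nlp-24, nlp-28 and nlp-29). With each replicate left out in turn and the other cut to the optimal length, they were 2 to 3. The 32 with a pooled summit became 20 with the stronger 15000 pooled peaks, and 13 when only genes of at most 1000 bp were counted, a choice made after seeing the data; the single replicates gave 30 to 37. The ins genes with a pooled summit went from 5 to 3 when shared summits were dropped, and were 2 to 4 in the single replicates. With the 5000 strongest peaks of each replicate, the 37 of replicate 1 became 6, the 30 of replicate 2 became 10 and the 20 of both became 5. With as many peaks as the optimal list they became 2, 3 and 0. Over all protein-coding genes the same shorter lists lowered the counts too. The stronger 551 optimal peaks left 329 of 636 genes, and the stronger 15000 pooled peaks left 5476 of 7458. With the 5000 strongest peaks of each replicate, 8657 became 2603, 6925 became 2449 and 5673 became 1422. With as many peaks as the optimal list these were 640, 656 and 324. Gene body only, 1000 bp upstream and overlap of the peak interval left every count within 1.5 times. Of 114 ranks of single genes, 105 did not move under another window. Among those that moved, nlp-76 went from 575 to 13386 with gene body only and when shared summits were dropped. nlp-33 went from 336 to 11636 when shared summits were dropped. In 14 further cases no summit was left, and these include ins-13, flp-28 and nlp-69 in all but the 1000 bp window.

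No paired analysis was possible because there is 1 group. With 2 replicates, unknown depth and whole animals, a missing summit does not show a gene without polymerase, and neither replicate can be called the better one. Short neighbouring genes can share a summit, and pooled peaks, with a median width of 336 bp, cover most of a gene such as nlp-28, which is 417 bp long.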

Other observations

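The caenacins, another family of epidermal antimicrobial peptide genes with symbols that begin with cnc, were looked at after the other values had been seen. Of 11 genes, 4 held a pooled summit, 36.4% against 37.3% of all protein-coding genes. The 4 were cnc-4 at rank 5561, cnc-8 at 6814, cnc-3 at 8869 and cnc-10 at 9942. The pooled share was 26.2% of protein-coding genes of at most 1000 bp, and 24.5% of those on chromosome V, where most caenacins lie. The caenacins were not matched to any of these backgrounds for length. None held an optimal summit. Replicate 2 held a summit in 4 of the 11, 36.4% against 34.7% of all protein-coding genes, and replicate 1 in 1, cnc-3 at rank 13094, 9.09% against 43.3%.

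Promoters, taken as 250 bases before to 50 bases after the annotated 5' end, were searched on both strands for TATAAA, the core of a TATA box, and for TTTCAG, the end of the worm splice acceptor consensus. TATAAA was present in all 5 genes with an optimal summit, in 24 of 38 ins genes (63.2%), in 32 of 71 nlp genes (45.1%) in 11 of 31 flp genes (35.5%) and in 67 of all 140 peptide genes (47.9%), against 37.9% of all protein-coding genes. Of the 32 genes with a pooled summit 13 held it (40.6%), near that background. TTTCAG was present in 1 of the 5 genes with an optimal summit, in 9 of the 32 with a pooled summit (28.1%) and in 71 of all 140 peptide genes (50.7%), against 51.7% of all protein-coding genes. A match of letters is a description and shows no site in use.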
